A study of Mus musculus with 7 samples.

Results

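The genes described here encode the proteins that start, extend and end protein synthesis on cytosolic ribosomes: eukaryotic initiation factors (eIF), elongation factors (eEF), the 4E-binding proteins that restrain initiation, and the release factor gene Etf1. Members were the rows of the per-sample gene tables whose symbol is in a list of 42 names. A row was found for 41 of them among 23366 gene rows, and all 41 passed the filter on low counts. The missing name is Eif3j, which the tables carry as the near-identical copies Eif3j1 and Eif3j2. Eif3j1 stood at 0 counts in all 7 libraries and Eif3j2 at 177 to 478, with a log2 fold change of 0.00 ± 0.11 SE.

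The study sequenced mRNA-enriched RNA of liver from C57BL/6 mice, an inbred strain, at 3 months (n = 4) and at 21 months (n = 3). No genotype change or treatment is given for either age, and the labels give neither sex nor feeding state. Whether each library is a different mouse is not stated, so p-values reflect only how far these libraries scatter, and that scatter may be technical. In whole tissue, fewer cells of a type and less RNA per cell cannot be told apart.

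Initiation begins when eIF2, carrying the initiator tRNA, joins the small ribosomal subunit together with eIF1, eIF1A, eIF3 and eIF5. The eIF4F complex (cap-binding eIF4E, the helicase eIF4A and the scaffold eIF4G) brings this assembly to the mRNA cap, and eIF5B then promotes joining of the large subunit. eIF2B recycles eIF2 by exchanging its guanine nucleotide, and eIF2 phosphorylated by stress kinases inhibits eIF2B. eEF1A delivers aminoacyl-tRNA, its exchange factors recharge it, and eEF2 moves the ribosome along. In liver, an organ that exports much protein, feeding and amino acids act on these proteins mainly through phosphorylation and translation, which mRNA levels do not measure.

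The short stretches around annotated transcription starts are shown for 7 of the 8 members that changed with age (all but Eef1d), because some mRNAs of the translation machinery begin with a C followed by a run of C and T, the terminal oligopyrimidine (TOP) element through which mTOR controls their translation. The letters are from RefSeq (build GRCm38.p6), 15 bases before the start in lower case and 15 bases from the start on in capitals, on the gene's own strand.
Eif5b, chr1:37997995-37998024 (+): ggcgcctgggttcccACCTGGCCGGCGGCT
Eif3a, chr19:60790679-60790708 (-): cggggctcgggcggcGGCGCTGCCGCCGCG
Eif3g, chr9:20898576-20898605 (-): tctttacccgggctgGGAGCTGCGTGGAGT
Eif4b, chr15:102073758-102073787 (+): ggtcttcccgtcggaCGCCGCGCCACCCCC
Eif2b1, chr5:124579117-124579146 (-): cgcactcgatttccgGCGCCGACGAGTGAC
Eif2b4, chr5:31193125-31193154 (-): cgggacccagtgcacGCCGGAAGTTGTAGT
Eif3f, chr7:108934400-108934429 (+): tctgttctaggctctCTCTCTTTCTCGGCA

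Of these 7 genes, Eif3f, the one whose level was higher in old liver, had a TOP-like start, taken as a C within 3 bases of the annotated start followed by at least 4 C or T on the gene's strand. Its run was 13 bases long. The table held windows for 32 of the 42 genes (41 windows). Among those 32, Eef1a1, Eif2b5, Eif3b, Eif3l and Eif4g1 also had such a start, and none of these 5 passed the test for a change with age. In all, 6 of 41 member windows had one, or 14.6%, against 11.5% of all 32851 windows and 12.1% of those of tested genes. The hexamer CACGTG, an E-box that reads the same on both strands, lay in the 300-base windows (250 before and 50 after the start) of 10 member genes, among them Eif3a (from base 23 of the transcript) and Eif3f (from base -68). It was found in 29.3% of member windows, 7.15% of all windows and 10.0% of those of tested genes. Windows of a gene can overlap, and the same Eif5a hexamer was counted at start 2 (base -74) and start 3 (base -185). CCGGAAGT, an ETS-family motif searched on both strands, was in the windows of 6 member genes, in 14.6% of member windows, 3.89% of all windows and 8.04% of those of tested genes. In Eif2b4 it began at base 2 of the transcript, as it did in Eef1b2, an eEF1A exchange factor:
Eef1b2, chr1:63176816-63176845 (+): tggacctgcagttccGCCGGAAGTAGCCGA

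Annotated starts need not be the starts that liver uses. A TOP-like start found or missing at them therefore does not show how the liver mRNA begins. In Eef1a1, which encodes eEF1A1, TATATAA (both strands searched; 3.24% of all windows and 1.45% of those of tested genes) began at base 24 of the annotated transcript, and in Eif1 at base 8. These were 4.88% of member windows. These matches describe letters in a window and do not show binding.

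Libraries held 4724687 to 11143125 expected counts, of which the members took 0.684% to 0.827%. The ribosomal RNA row Rn45s alone took 18.7% to 25.6%. It was highest in replicate 1 of each age (25.6% at 3 months and 22.4% at 21 months), where the members' share was lowest (0.689% and 0.684%). The smallest count of any member in a library was 27 (Eif2b3). CPM below are counts per 1e+06 scaled counts. TPM, a transcript's share of the library corrected for length and per 1e+06, are used to compare levels between genes. Fold changes are 21 months over 3 months, with adjusted p from edgeR's quasi-likelihood test over all 11251 genes tested and a threshold of 0.05.

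At 21 months, 7 of the 41 members were lower and 1 was higher. The members that fell were Eif5b, Eif3a, Eif3g, Eef1d, Eif4b, Eif2b1 and Eif2b4, and the one that rose was Eif3f. Over all genes tested, 5.86% were lower and 5.47% higher, against 17.1% and 2.44% of members. The ages did not overlap for 16 members with lower values in old liver and for 1 with higher values, where the shares over all genes were 12.8% and 11.3%. The median log2 fold change of the members was -0.17, against 0.00 over all genes, and 33 of 41 lay below 0, or 80.5%, against 50.2% of all genes. The members were chosen with earlier results of these data known, so these shares do not come from an independent list. Fits that leave out a library or change a setting called between 2 and 11 members lower. On the TPM scale the median of all genes itself lay 0.10 above 0 on the log2 scale. There, 25 members lay below 0 and their median was -0.04. The ages did not overlap in TPM for 8 members with lower and 2 with higher values in old liver (Eif1 and Eif3f), with shares over all genes of 6.53% and 16.9%. The share of higher genes among all calls was 74.9% on that scale and 48.3% on scaled counts.

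**Figure D1:**
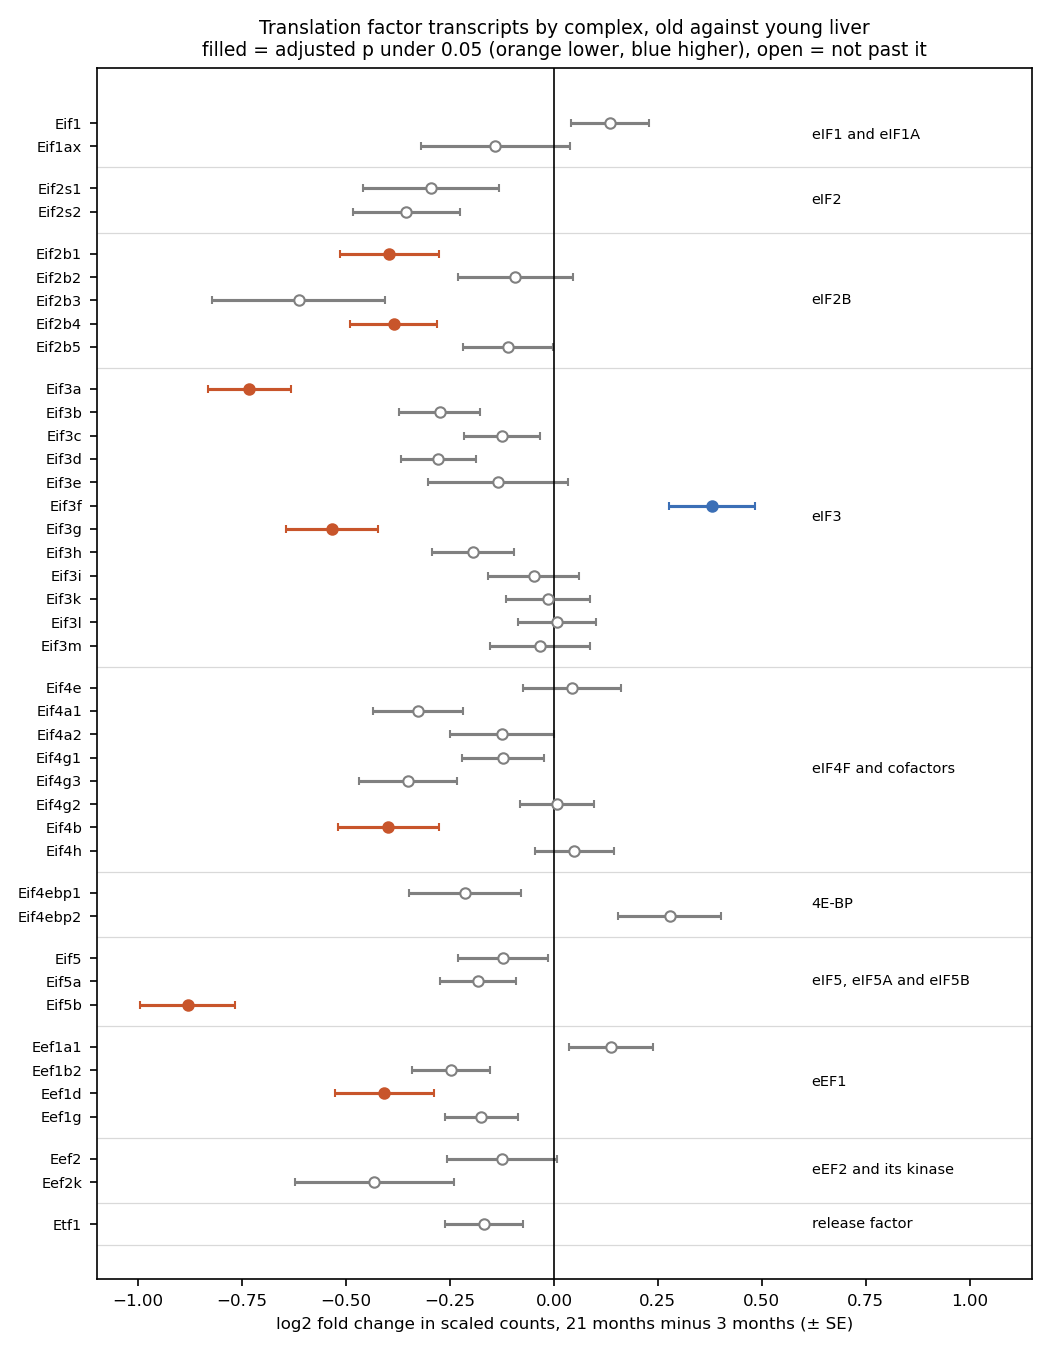
Log2 fold change in scaled counts (x axis, 21 months minus 3 months, bars ± SE) of each of the 41 members, grouped by complex. Filled points passed the adjusted p threshold: 7 lower (orange) and 1 higher (blue), with Eif5b farthest to the left.

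Subunit joining factor eIF5B showed the largest fall of any member. Eif5b CPM were 54.4, 52.5, 59.9 and 57.5 in the young libraries (replicates 1 to 4, the order used throughout) and 33.4, 25.6 and 31.9 in the old ones (replicates 1 to 3). Every old library lay well below every young one. The log2 fold change was -0.88 ± 0.11 SE, a 1.84-fold fall (edgeR adjusted p = 0.000474), and it passed in all 15 alternative fits (log2 fold change -0.96 to -0.70). Its neighbours in the list did not pass. Eif5, whose protein makes eIF2 hydrolyse GTP at the start codon, had a log2 fold change of -0.12 ± 0.11 SE (edgeR adjusted p = 0.516), and Eif5a, whose hypusine-bearing protein aids elongation and termination, of -0.18 ± 0.09 SE (edgeR adjusted p = 0.217). Within a library, the Eif5b level per length was 21.4% to 25.6% of that of Eif5 at 3 months and 12.9% to 14.5% at 21 months. Eif5b was among the scarce members (mean TPM 11.4) and Eif5a among the abundant ones (437).

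eIF3, the largest initiation factor, is a scaffold of many subunits, and its mRNAs did not move as one. Eif3a encodes the subunit around which the complex is built. Its CPM were 132, 155, 162 and 164 in the young libraries and 93.9, 89.1 and 93.1 in the old ones. The old libraries lay within 5 CPM of each other and below all young ones. Its log2 fold change was -0.73 ± 0.10 SE, a 1.66-fold fall (edgeR adjusted p = 0.000609), and it passed in all 15 alternative fits (-0.80 to -0.59).

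Eif3g encodes an RNA-binding subunit that sits with eIF3a, eIF3b and eIF3i in the yeast-like core. Its CPM were 48.7, 45.6, 43.5 and 55.7 at 3 months and 32.3, 34.2 and 33.7 at 21 months, with no overlap. The log2 fold change was -0.53 ± 0.11 SE (edgeR adjusted p = 0.00696), and the call was lost only with the effective-length covariate described below (-0.59, edgeR adjusted p = 0.0538). Of the other core subunits, Eif3b had a log2 fold change of -0.27 ± 0.10 SE (edgeR adjusted p = 0.0811) and Eif3i of -0.05 ± 0.11 SE (edgeR adjusted p = 0.8293). So 2 of the 4 core mRNAs passed the test and the others did not.

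Eif3f, which encodes a subunit of the MPN-domain pair with eIF3h, went the other way. It stood at 59.1, 53.0, 56.6 and 60.7 CPM at 3 months and at 65.9, 82.5 and 75.5 CPM at 21 months. The ages did not overlap, but 21-month replicate 1 lay close to the young range. The log2 fold change was 0.38 ± 0.10 SE, a 1.30-fold rise (edgeR adjusted p = 0.0292). It no longer passed when 3-month replicate 1, 2 or 3 was omitted (edgeR adjusted p = 0.0551, 0.0906 and 0.0725), when 21-month replicate 2 or 3 was omitted (0.079 and 0.0845) or with the covariate (0.272). Its partner Eif3h had a log2 fold change of -0.19 ± 0.10 SE (edgeR adjusted p = 0.2198).

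The proportion of these mRNAs differed between the ages. Per length, Eif3f was 121% to 158% of Eif3a in the young libraries and 247% to 325% in the old ones. This ratio was chosen after the values were seen and was not tested. Of the remaining eIF3 rows, Eif3d, which can bind caps of some mRNAs, lay lower in every old library without passing (log2 fold change -0.28 ± 0.09 SE, edgeR adjusted p = 0.0592). Eif3c, Eif3e, Eif3k, Eif3l and Eif3m lay between -0.13 and 0.01, and their ages overlapped. Summed over the 12 rows, eIF3 stood at 862 ± 21.8 CPM (SD, n = 4) at 3 months and at 747 ± 16.1 CPM (SD, n = 3) at 21 months, without overlap. Per length the sums overlapped, at 934 ± 40.7 (SD, n = 4) and 923 ± 49.2 TPM (SD, n = 3), so a lower total holds for scaled counts only.

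**Figure D2:**
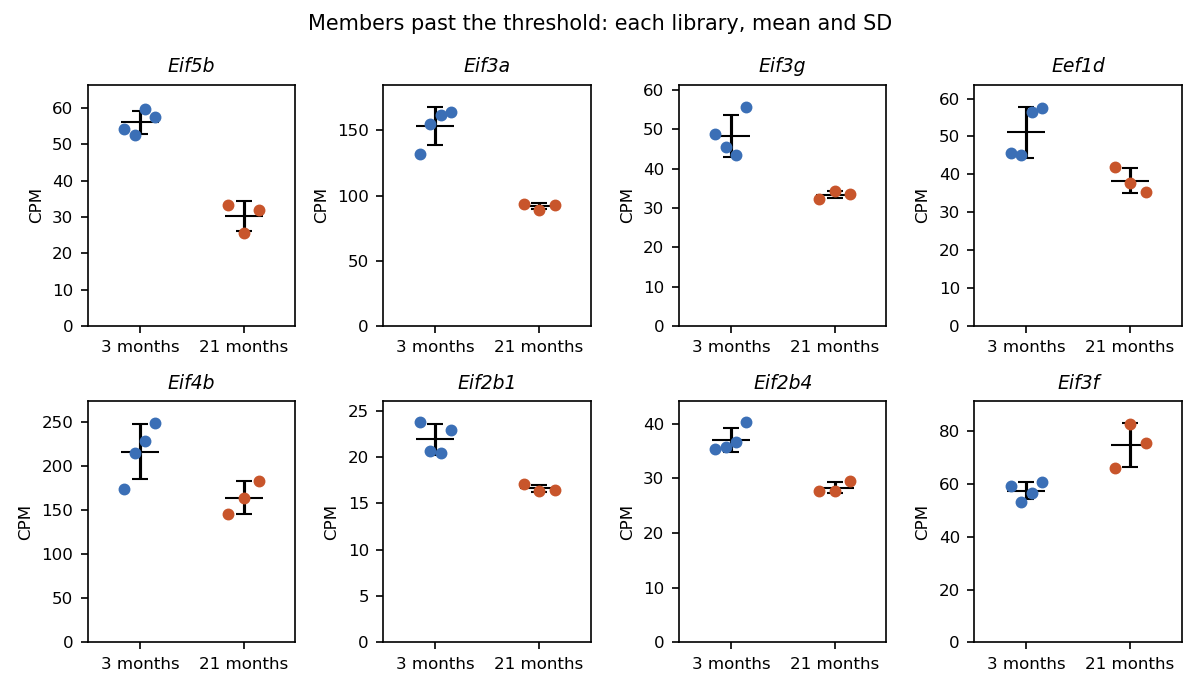
CPM (y axis, from 0) of the 8 members that passed the threshold, 1 point per library, with the mean (line) and SD (bars) at 3 months (n = 4) and 21 months (n = 3). The ages are apart for all but Eif4b, where 3-month replicate 1 lies at 174 CPM, within the range of the old libraries.

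The eIF2B exchange factor has regulatory subunits alpha, beta and delta (Eif2b1, Eif2b2 and Eif2b4) and catalytic subunits gamma and epsilon (Eif2b3 and Eif2b5). All 5 log2 fold changes lay below 0 and 2 passed. Eif2b4 stood at 35.4, 35.8, 36.6 and 40.2 CPM at 3 months and at 27.8, 27.7 and 29.5 CPM at 21 months, a log2 fold change of -0.39 ± 0.10 SE (edgeR adjusted p = 0.028). Eif2b1 stood at 23.7, 20.6, 20.4 and 22.9 CPM at 3 months and at 17.0, 16.3 and 16.4 CPM at 21 months, a log2 fold change of -0.40 ± 0.12 SE (edgeR adjusted p = 0.0443). In both genes all old libraries lay below all young ones.

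Both calls lay near the threshold. With the replicate number as a block they were lost (edgeR adjusted p = 0.0774 for Eif2b4 and 0.0998 for Eif2b1). That block leaves 3-month replicate 4 without a partner, and omitting this library alone also ended both calls. That of Eif2b1 was kept in 1 of 15 alternative fits, without 21-month replicate 1, and that of Eif2b4 in 5. The log2 fold changes themselves ranged from -0.43 to -0.26 for Eif2b1 and from -0.45 to -0.26 for Eif2b4.

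Eif2b3 had the largest estimate of the complex but few counts, 303 in all libraries together. It stood at 7.48, 5.83, 6.27 and 7.79 CPM at 3 months and at 5.22, 3.77 and 4.16 CPM at 21 months. The ages did not overlap, and the log2 fold change of -0.61 ± 0.21 SE missed the threshold (edgeR adjusted p = 0.0691). It passed with limma on TPM (limma adjusted p = 0.0445) and without 21-month replicate 1 (edgeR adjusted p = 0.0351). Eif2b2 and Eif2b5 had log2 fold changes of -0.09 ± 0.14 SE and -0.11 ± 0.11 SE, and their ages overlapped. The summed eIF2B level was 115 ± 6.05 CPM (SD, n = 4) at 3 months and 94.6 ± 1.28 CPM (SD, n = 3) at 21 months, and the ages were apart per length as well (115 ± 2.82 and 102 ± 4.15 TPM, SD, n = 4 and n = 3).

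The eIF2 mRNAs were spread among the old libraries. Eif2s2, the beta subunit of eIF2, stood at 46.2, 45.5, 47.5 and 45.8 CPM at 3 months and at 43.4, 28.2 and 36.3 CPM at 21 months. The young libraries were nearly equal and the old ones ranged from just under them to well below. The log2 fold change of -0.36 ± 0.13 SE did not pass (edgeR adjusted p = 0.0871). Without 21-month replicate 1 it did (-0.52, edgeR adjusted p = 0.00809), as did Eif2s1, the alpha subunit that stress kinases phosphorylate (-0.52, edgeR adjusted p = 0.0338). With all libraries Eif2s1 had a log2 fold change of -0.30 ± 0.16 SE (edgeR adjusted p = 0.272). The gamma subunit genes Eif2s3x and Eif2s3y, which are close relatives listed with the other pathway genes, had log2 fold changes of 0.07 ± 0.10 SE and -0.02 ± 0.17 SE, and their ages overlapped. The start-codon selection factor gene Eif1 stood at 181, 158, 177 and 186 CPM at 3 months and at 197, 181 and 199 CPM at 21 months, which overlap (log2 fold change 0.13 ± 0.09 SE, edgeR adjusted p = 0.396). Eif1ax had a log2 fold change of -0.14 ± 0.18 SE. Its row has a close relative in the tables, Eif1a (-0.09 ± 0.13 SE), so how reads were divided between the copies is uncertain.

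In the eIF4F group 1 of 8 members passed. Eif4b, whose protein stimulates the eIF4A helicase, stood at 174, 214, 228 and 248 CPM at 3 months and at 145, 164 and 183 CPM at 21 months. The ages overlapped at 1 young library. The log2 fold change was -0.40 ± 0.12 SE (edgeR adjusted p = 0.0469), and the call was lost in 11 of 15 alternative fits (adjusted p = 0.0503 to 0.272), with every estimate below 0.

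Eif4a1, the main eIF4A helicase, stood at 248, 229, 218 and 239 CPM at 3 months and at 209, 155 and 193 CPM at 21 months. All old libraries lay lower, but the log2 fold change of -0.33 ± 0.11 SE did not pass (edgeR adjusted p = 0.0626). It passed without 21-month replicate 1 (-0.42, edgeR adjusted p = 0.0144) and with no filter on low counts. Its paralog Eif4a2, whose old libraries read 108, 69.3 and 84.2 CPM around a young range of 92.2 to 98.8, had a log2 fold change of -0.12 ± 0.12 SE (edgeR adjusted p = 0.572), and passed without 21-month replicate 1 (-0.31, edgeR adjusted p = 0.0495). The scaffold gene Eif4g3 had a log2 fold change of -0.35 ± 0.12 SE (edgeR adjusted p = 0.0664), and passed with no filter on low counts (edgeR adjusted p = 0.0411) and without 21-month replicate 2 (0.0386). The main scaffold Eif4g1 stood at -0.12 ± 0.10 SE, the scaffold relative Eif4g2 at 0.01 ± 0.09 SE, the cofactor Eif4h at 0.05 ± 0.09 SE and the cap-binding Eif4e at 0.04 ± 0.12 SE, with the ages overlapping in each.

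Eif4ebp1 and Eif4ebp2 encode proteins that hold eIF4E away from eIF4G until mTOR phosphorylates them. Neither passed. Eif4ebp2 stood at 92.7, 101, 93.5 and 103 CPM at 3 months and at 91.7, 139 and 125 CPM at 21 months, so 21-month replicate 1 read like the young libraries and the other two higher (log2 fold change 0.28 ± 0.12 SE, edgeR adjusted p = 0.163). Without that library the rise passed (0.43, edgeR adjusted p = 0.00586). Eif4ebp1 stood at 25.9, 26.4, 22.05 and 30.5 CPM at 3 months and at 21.3, 26.5 and 20.5 CPM at 21 months (log2 fold change -0.21 ± 0.14 SE, edgeR adjusted p = 0.343). Per length, Eif4ebp1 was 43.9% to 55.0% of Eif4ebp2 in young libraries and 30.3% to 43.2% in old ones, a ratio chosen after seeing the values and not tested.

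**Figure D3:**
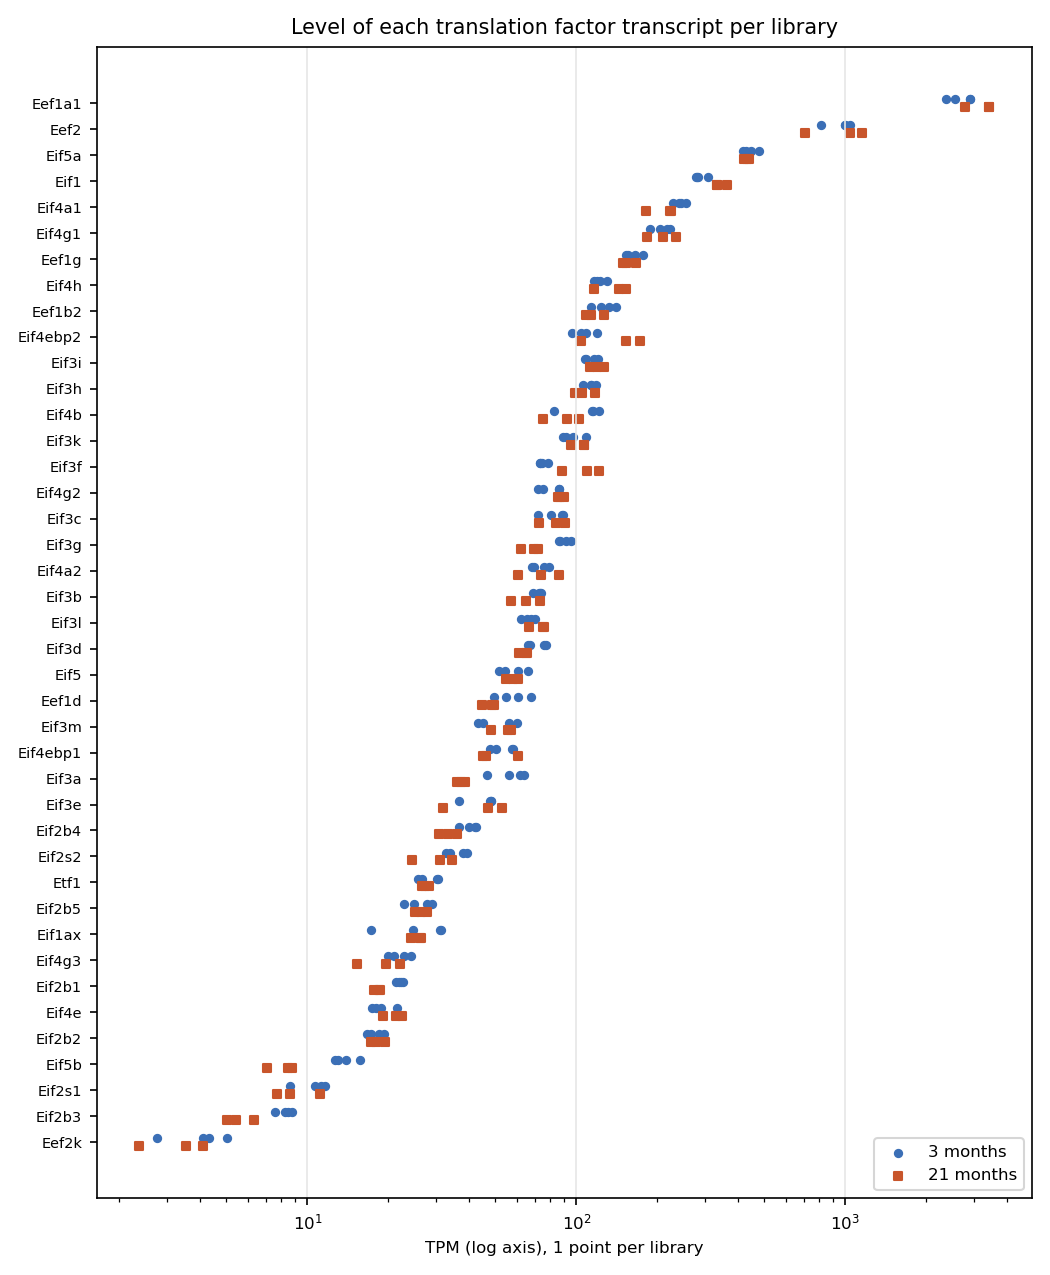
TPM (x axis, log scale) of each member in each library, ordered by the mean over the 7 libraries, with circles for 3 months and squares for 21 months. Elongation factor genes Eef1a1 and Eef2 lie at the top and Eef2k at the bottom. The ages overlap for 31 of 41 members. They are apart for 8 with lower and 2 with higher values in old liver, where the shares over all genes are 6.53% and 16.9%.

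The elongation factors spanned the range of levels. Eef1a1 was the most abundant member (mean TPM 2908), followed by Eef2 (964), while Eef2k, whose kinase inhibits eEF2, was the least (3.74). Eef1a1 stood at 2281, 2477, 2491 and 2524 CPM at 3 months and at 2458, 2777 and 2823 CPM at 21 months. The ages overlapped, and the log2 fold change was 0.14 ± 0.10 SE (edgeR adjusted p = 0.429).

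Of the genes of its exchange complex 1 of 3 passed. Eef1d, which encodes an exchange subunit, stood at 45.6, 45.0, 56.4 and 57.5 CPM at 3 months and at 41.98, 37.7 and 35.4 CPM at 21 months, with no overlap (log2 fold change -0.41 ± 0.12 SE, edgeR adjusted p = 0.0405). The call was lost with the replicate block (edgeR adjusted p = 0.0994) and in 8 further fits. Eef1b2, the other exchange subunit, and Eef1g, which anchors them, were lower in every old library without passing (log2 fold change -0.25 ± 0.09 SE and -0.17 ± 0.09 SE, edgeR adjusted p = 0.0998 and 0.225). Set against Eef1a1 per length, Eef1b2 was 4.55% to 4.85% at 3 months and 3.17% to 4.10% at 21 months, Eef1g 5.66% to 6.47% and 4.45% to 5.40%, and Eef1d 1.88% to 2.38% and 1.30% to 1.79%. All 3 proportions were lower in every old library, and they share the Eef1a1 value as denominator. In TPM, the scale of these proportions, the ages overlapped for Eef1a1 and for each of the 3 genes.

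Eef2 spread widely among the old libraries. It stood at 1364, 1549.9, 1506 and 1736 CPM at 3 months and at 1100.0, 1635 and 1501 CPM at 21 months (log2 fold change -0.12 ± 0.13 SE, edgeR adjusted p = 0.601). Eef2k stood at 14.965, 15.5, 12.7 and 9.90 CPM at 3 months and at 7.59, 12.01 and 10.5 CPM at 21 months, which overlap (log2 fold change -0.43 ± 0.19 SE, edgeR adjusted p = 0.163). On scaled counts, the stop-codon reader Etf1 was slightly lower in every old library (54.4 ± 1.54 CPM, SD, n = 4, against 48.4 ± 1.52 CPM, SD, n = 3). In TPM its ages overlapped, and it did not pass (log2 fold change -0.17 ± 0.09 SE, edgeR adjusted p = 0.274).

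**Figure D4:**
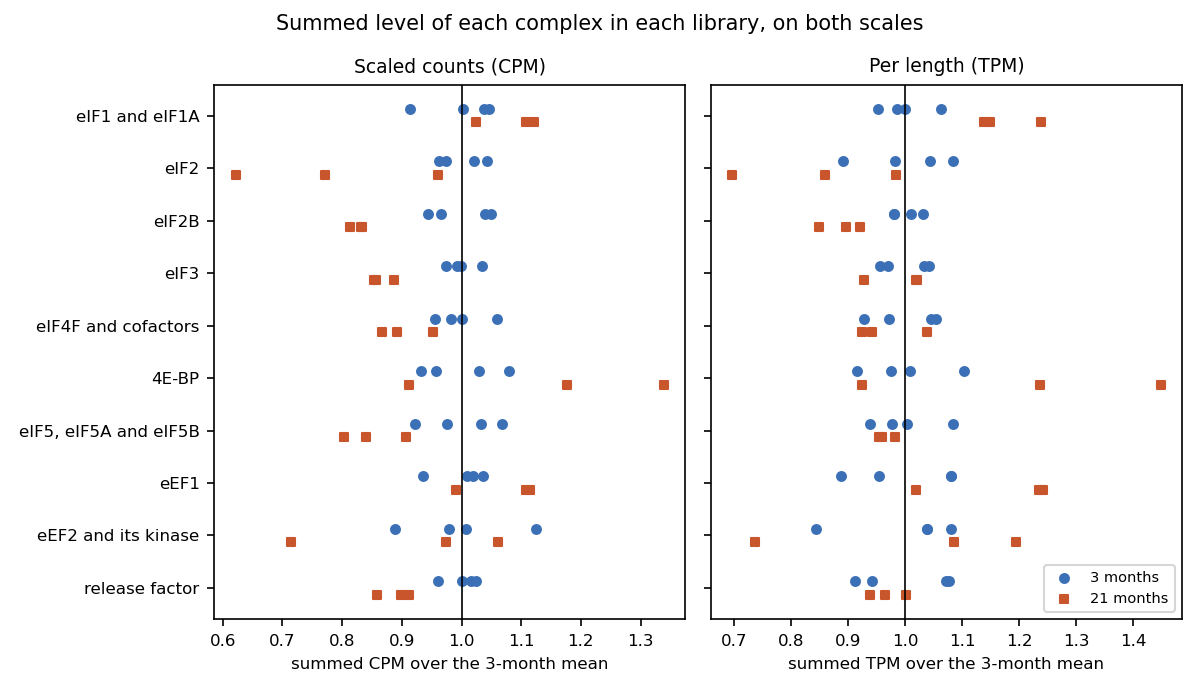
Summed level of each complex in each library relative to its 3-month mean (x axis), as scaled counts (left) and per length (right), with circles for 3 months and squares for 21 months. The eIF2B sums are apart on both scales, whereas the eIF3 sums are apart on scaled counts only.

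Libraries and settings moved these calls unequally. In a fit with the replicate number as a block, 4 members were lower (Eif5b, Eif3a, Eif3g and Eif4b) and Eif3f was higher. Another fit added as a covariate each library's median shortfall of effective length against length, and what sets this shortfall was not tested. With it, Eif5b (log2 fold change -0.905, edgeR adjusted p = 0.012) and Eif3a (-0.75, edgeR adjusted p = 0.0131) were the members called. This shortfall was 34.4 to 38.8 bases in the young libraries and 35.4, 30.9 and 21.4 in 21-month replicates 1, 2 and 3, so it moves partly with age. Without that last library, 3 members were called lower. Without 21-month replicate 1 the number was 11.

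**Figure D5:**
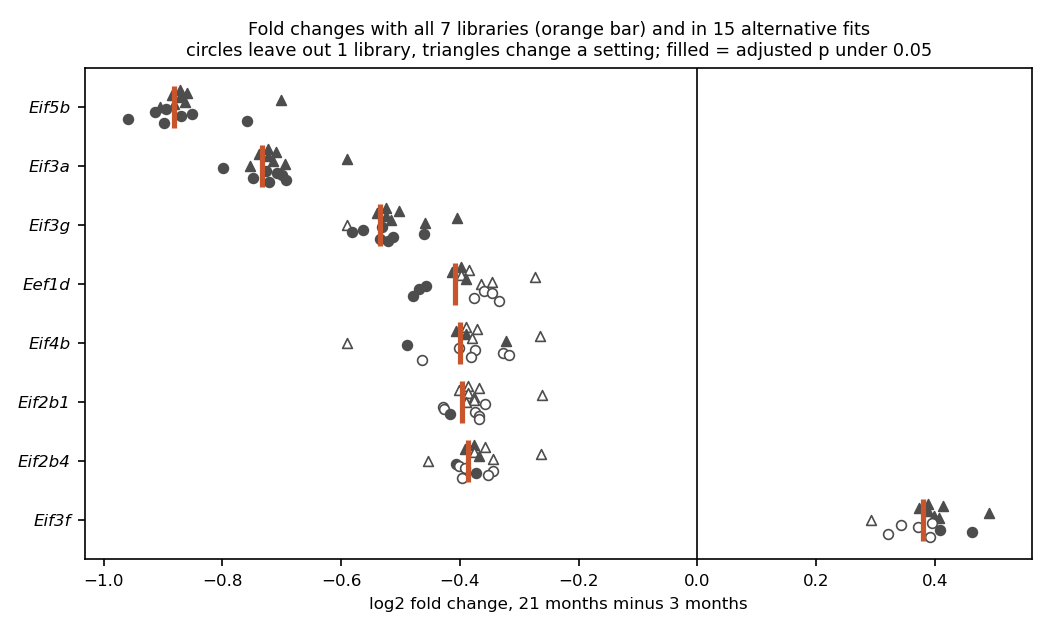
Log2 fold change (x axis) of the 8 members that passed, with all 7 libraries (orange bar) and in 15 alternative fits, where circles leave out 1 library, triangles change a setting and filled symbols passed the threshold. All symbols of Eif5b and Eif3a are filled, and no symbol lies on the other side of 0 from its bar.

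Other genes of the pathway were listed from textbook knowledge in 4 lists, also with earlier results of these data known, and 74 of the genes were tested. Of these, 4 were lower and 1 higher, 5.41% and 1.35%, close to or below the shares over all genes. Their median log2 fold change was -0.10. Among 25 other initiation factors 3 were lower and none higher. Eif4ebp3, a further 4E-binding protein gene, stood at 17.2, 14.0, 13.8 and 28.4 CPM at 3 months and at 8.97, 11.0 and 7.97 CPM at 21 months. The ages were apart, and 3-month replicate 4 stood above the other young libraries (log2 fold change -0.97 ± 0.26 SE, edgeR adjusted p = 0.0368). Its call was lost with the covariate and without 3-month replicate 1 or any of the old libraries (edgeR adjusted p = 0.0599 to 0.17).

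Pabpc4, a poly(A)-binding protein gene, read 35.8, 33.7, 37.2 and 41.4 CPM in young and 27.6, 31.3 and 25.8 CPM in old libraries, with no overlap. It fell from 37.0 ± 3.24 CPM (SD, n = 4) to 28.2 ± 2.79 CPM (SD, n = 3; edgeR adjusted p = 0.0412), a call lost in 11 of 15 alternative fits, the replicate block among them (0.115). The helicase gene Ddx3x read 113, 122, 138 and 124 CPM in young and 102, 87.0 and 102 CPM in old libraries. Its ages did not overlap in CPM but did in TPM. It fell from 124 ± 10.1 CPM (SD, n = 4) to 97.2 ± 8.82 CPM (SD, n = 3; edgeR adjusted p = 0.0358), a call lost in 8. The more abundant Pabpc1 had a log2 fold change of -0.19 ± 0.10 SE (edgeR adjusted p = 0.257).

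Among 22 kinases and signalling genes 1 was higher and 1 lower, and with the replicate block 2 were higher. Mknk2, whose kinase phosphorylates eIF4E, stood at 79.4, 58.9, 66.1 and 65.9 CPM at 3 months and at 92.7, 105 and 90.5 CPM at 21 months, with no overlap (log2 fold change 0.51 ± 0.11 SE, edgeR adjusted p = 0.00861). That call was lost only with the covariate (edgeR adjusted p = 0.0733). Eif2ak3 encodes PERK, the endoplasmic reticulum kinase that phosphorylates eIF2 alpha, and stood at 28.1, 31.4, 32.0 and 37.8 CPM in young and at 19.9, 12.99 and 18.2 CPM in old libraries. It passed in all 15 alternative fits (log2 fold change -1.04 to -0.74). The other eIF2 kinases Eif2ak1, Eif2ak2 and Eif2ak4 had log2 fold changes of 0.00 ± 0.11 SE, -0.06 ± 0.14 SE and 0.29 ± 0.16 SE and did not pass. Mtor itself stood at -0.06 ± 0.13 SE. None of 17 tested elongation, release and rescue factors and none of 10 mitochondrial translation factors passed with edgeR. Without 21-month replicate 1, 3 of the mitochondrial factors were called lower. With all libraries 9 of these 10 lay below 0, or 90.0%, against 50.2% of all genes. At an unadjusted p under 0.05, the first list had 1 higher and 2 lower and the second 0 higher and 3 lower, where 12.7% of all genes were higher and 13.9% lower.

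Marker transcripts were read for the cell types that a liver sample can hold. Hepatocyte markers were abundant in all libraries, and their sum was higher in the old ones (65300 to 68500 CPM against 45800 to 59900), where Alb was called higher and Apoa1 lower. The summed B and plasma cell list was 2.92 to 3.64 CPM at 3 months and 8.47 to 39.4 at 21 months, with Igj called higher of 2 tested. The summed T and NK list was 1.14 to 2.02 and 3.45 to 8.52 CPM, with none of 7 markers abundant enough to be tested. The bile duct list was 31.8 to 46.3 and 28.9 to 31.6 CPM, with Sox9 lower. Macrophage, neutrophil, endothelial, stellate and red cell sums overlapped between ages, with Lyve1 lower and Dcn higher among their genes, and exocrine pancreas transcripts stayed at or below 0.559 CPM in sum, with 4 of 6 at 0 throughout. The part of these differences in the results above was not tested.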

How the data were processed

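Per the labels' protocols, total liver RNA was enriched for mRNA, fragmented and made into strand-specific libraries by adapter ligation and PCR. No molecular identifiers are mentioned there. TopHat, RSEM and edgeR, with build mm9, are named in the submitters' processing notes, without versions or roles. The authors deposited 1 table per sample with expected counts per gene, 86.5% of them whole. The authors also deposited TPM, and FPKM values that were not used. Per the file headers, length and effective length stand beside them.

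Counts were rounded, filtered with filterByExpr (minimum count 10, minimum total 15), scaled by TMM and tested with edgeR 4.0.16 (robust quasi-likelihood, R 4.3.3), 21 against 3 months, with Benjamini-Hochberg adjustment over 11251 genes. Alternatives used RLE, library-size scaling, no filter, DESeq2 1.42.0, limma 3.58.1 on log2(TPM + 1), removal of Rn45s and Lars2, a replicate block, an effective-length covariate and each library left out. Pairing by replicate number was looked for in the data alone. Deviations of same-numbered libraries from the mean of their age correlated weakly (r = 0.114, 0.176 and 0.114 for replicates 1, 2 and 3 over tested genes). Libraries with different numbers were not compared, so these values do not show pairing. The main fit used no pairs, and the replicate block was an alternative. Only the 3-month group has a replicate 4, so the block takes that library out of the age comparison. No pair of libraries agreed within sampling noise (lowest chi-square per degree of freedom 4.34).

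Members and lists were chosen with earlier results of these data known. Values in every sample were given for members past the threshold (at most 12), for the smallest p in each complex of 2 or more, and for pathway genes past the threshold (at most 10). Other values and all ratios were chosen after being seen. TOP-like starts were planned, the other motifs were added later.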

Additional observations from a re-analysis of the deposited data

How the results depend on the processing

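Direction held for all 8 called members in all 15 alternative fits, and 2 of them, Eif5b and Eif3a, kept their call in each. Members called lower were 7 with all libraries, 3 with library-size scaling, 4 with DESeq2, 4 with limma on TPM, 4 with the replicate block, 2 with the effective-length covariate and 3 to 11 with 1 library left out. Members called higher were 1, with 0 under the covariate and 0 to 2 with 1 library left out. All genes called were 1274, with 332 under the covariate and 580 to 1642 with 1 library left out. Pathway genes called higher were 1, with 2 under library-size scaling, 2 with no filter, 3 with limma on TPM, 2 with the block, 0 with the covariate and 1 to 2 with 1 library left out. Those called lower were 4, with 2 under library-size scaling, 2 with limma on TPM, 1 with the covariate and 1 to 6 with 1 library left out. The replicate block ended the calls of Eif2b1, Eif2b4, Eef1d and Pabpc4, added 1 higher gene among the kinases and signalling genes, and changed no other call among the members and the pathway genes past the threshold. The causes were not tested.

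Ratios of summed levels, old over young, were moved by TPM to 1.17 for eIF1 and eIF1A, 0.888 for eIF2B, 0.989 for eIF3, 0.968 for eIF4F, 0.965 for eIF5, eIF5A and eIF5B, 1.16 for eEF1 and 0.968 for Etf1. The other complexes moved by less than the spread between libraries: eIF2 from 0.784 to 0.847, the 4E-binding proteins from 1.14 to 1.20 and eEF2 with its kinase from 0.916 to 1.005, which lies on the other side of 1.

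The sign changed in 29 fits of 15 members, none of them called. With limma on TPM the log2 fold change was 0.0138 for Eif1ax, 0.0246 for Eif2b2, 0.0188 for Eif2b5, 0.0751 for Eif3i, 0.0975 for Eif3k, 0.0771 for Eif3m, 0.00134 for Eif4g1 and 0.00462 for Eif5. With the block it was 0.0114 for Eif3i and 0.000134 for Eif3k, and with the covariate -0.0179 for Eif3l and -0.0253 for Eif4h. For Eif3k it was 0.0133 with library-size scaling and 0.00514 with Rn45s and Lars2 removed. With 1 library left out it ranged from -0.342 to 0.0795 for Eif3e, -0.104 to 0.00581 for Eif3i, -0.0459 to 0.0146 for Eif3k, -0.0267 to 0.0391 for Eif3l, -0.101 to 0.0748 for Eif3m, -0.0561 to 0.147 for Eif4e, -0.31 to 0.0311 for Eif4a2, -0.0315 to 0.0638 for Eif4g2 and -0.225 to 0.0253 for Eef2.

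With 4 and 3 libraries, the members called lower nearest the threshold fell about 1.3-fold. The scarcer Eif2b3 fell 1.53-fold without passing. PCR reads without molecular identifiers are not independent molecules.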
